A study of Mus musculus with 9 samples.

Results

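The genes described here encode 8 K2P channels of the mouse brain, the potassium leak channels named for the pair of pore loops in each subunit: Kcnk1, Kcnk2, Kcnk3, Kcnk4, Kcnk9, Kcnk10, Kcnk12 and Kcnk13. They were taken by symbol from 54446 gene identifiers in the count tables, and all 8 were among the 17355 genes that passed the filter on low counts. Kcnk2 was chosen by its measured values: earlier results of these data named it among the genes of smallest p in Tfap2a+/- against wild type, so it is described here with no test. The other 7 genes are its relatives, and for them the same comparison is likewise given without a test.

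K2P channels assemble as dimers and carry the background potassium current that holds neurons and glia near a negative resting potential. They differ in what opens and closes them: the TREK channels respond to membrane stretch, heat and lipids, the TASK channels close when the outside becomes acid, and THIK channels were first known for closing in halothane. Several of them are opened by volatile anaesthetics and closed by receptors that signal through Gq proteins.

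Polyadenylated RNA was sequenced from brain tissue of adult male mice aged 3 to 4 months in 9 libraries, 3 of each genotype: heterozygous for a Tfap2a knockout (Tfap2a+/-), labelled heterozygous for a Tfap2b knockout (Tfap2b+/-), and wild type (labelled B6N). Tfap2a and Tfap2b encode the transcription factors AP-2 alpha and AP-2 beta. The sources used here give neither the brain region, nor how the alleles were made, nor whether each library is a separate animal, and the p-values therefore speak only of how these libraries vary, which may be technical. Each heterozygote was compared with wild type, and the heterozygotes with each other. The comparisons share libraries and are not independent of one another.

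Levels are CPM, the counts of a gene scaled to the library total by the TMM method, from 21946800 to 29214975 counts in genes per library, and 3 counts, the level a count of 0 allows, correspond to 0.101 to 0.141 CPM. The targeted genes did not settle the labels. Tfap2a had 13, 5 and 10 counts in Tfap2a+/- and 13, 7 and 19 counts in wild type. Tfap2b went against its label, at 32.9, 8.90 and 5.81 CPM in the group labelled Tfap2b+/- against 2.25, 0.715 and 14.8 CPM in wild type, so directions for that group refer to the label only. Markers of neurons, astrocytes, myelin and microglia were detected in every library, the lowest being the microglial Aif1 at 1.91 CPM. Markers of single regions varied within genotypes: choroid plexus markers were highest in wild-type library 2 and Tfap2a+/- library 1, and hindbrain markers in library 1 labelled Tfap2b+/-.

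AP-2 factors, which the genotype labels name, bind GC-rich sites, and the RefSeq start windows of the family (GRCm38.p6, 250 bases before to 50 bases after each annotated start) were searched for GCCNNNGGC, a palindrome that reads the same on both strands. At least 1 match stood in 3 of 10 windows of 6 members (Kcnk1, Kcnk2, Kcnk4, Kcnk10, Kcnk12 and Kcnk13), against 16.6% of 32851 windows of the same length genome-wide. The genome-wide windows were not matched for GC content, on which such matches depend, so nothing is read from these shares. Kcnk3 and Kcnk9 had no window in the source used. Kcnk2 has 4 annotated windows, of which 1 held a match, and Kcnk4 held 2 matches in its window. The 3 windows with a match are shown with the matched letters in capitals. A match is a run of letters, not a bound site.
Kcnk2, chr1:189343304-189343603, minus strand: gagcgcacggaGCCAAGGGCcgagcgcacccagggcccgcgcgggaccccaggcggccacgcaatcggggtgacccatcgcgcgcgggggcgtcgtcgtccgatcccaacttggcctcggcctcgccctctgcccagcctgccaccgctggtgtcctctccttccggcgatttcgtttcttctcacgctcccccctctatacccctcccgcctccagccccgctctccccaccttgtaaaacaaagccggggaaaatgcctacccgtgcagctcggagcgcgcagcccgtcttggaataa
Kcnk4, chr19:6934466-6934765, minus strand: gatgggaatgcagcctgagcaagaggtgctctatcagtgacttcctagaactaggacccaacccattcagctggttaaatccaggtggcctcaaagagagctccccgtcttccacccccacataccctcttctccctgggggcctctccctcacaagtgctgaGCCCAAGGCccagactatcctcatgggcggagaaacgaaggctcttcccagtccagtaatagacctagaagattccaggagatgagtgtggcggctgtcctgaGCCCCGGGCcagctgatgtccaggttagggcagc
Kcnk12, chr17:87797945-87798244, minus strand: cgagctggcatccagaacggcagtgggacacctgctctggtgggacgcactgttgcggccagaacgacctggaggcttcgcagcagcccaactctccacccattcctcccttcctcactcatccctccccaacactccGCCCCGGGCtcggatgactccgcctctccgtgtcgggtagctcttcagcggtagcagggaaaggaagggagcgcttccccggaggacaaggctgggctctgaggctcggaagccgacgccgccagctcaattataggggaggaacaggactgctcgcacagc

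Kcnk2 (ENSMUSG00000037624.15, chromosome 1, 189207930 to 189402273, GRCm38, minus strand) encodes TREK-1, a leak channel opened by stretch, heat and polyunsaturated fatty acids and closed by protein kinase A. It stood at 90.2, 93.3 and 88.7 CPM in the 3 Tfap2a+/- libraries, at 46.5, 53.4 and 53.3 CPM in the group labelled Tfap2b+/-, and at 46.8, 49.3 and 62.6 CPM in wild type. Every Tfap2a+/- library lay above every other library, while the group labelled Tfap2b+/- overlapped wild type. The means were 90.7 ± 2.36 CPM in Tfap2a+/-, 51.1 ± 3.96 CPM in the group labelled Tfap2b+/- and 52.9 ± 8.46 CPM in wild type (SD, n = 3 each). The fitted log2 fold was 0.78 ± 0.11 (SE) for Tfap2a+/- over wild type, 0.83 ± 0.11 for Tfap2a+/- over the group labelled Tfap2b+/-, and -0.05 ± 0.11 for the group labelled Tfap2b+/- over wild type. As a description of size, 430 of 17355 genes had a fold over wild type at least as high in Tfap2a+/-.

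**Figure D1:**
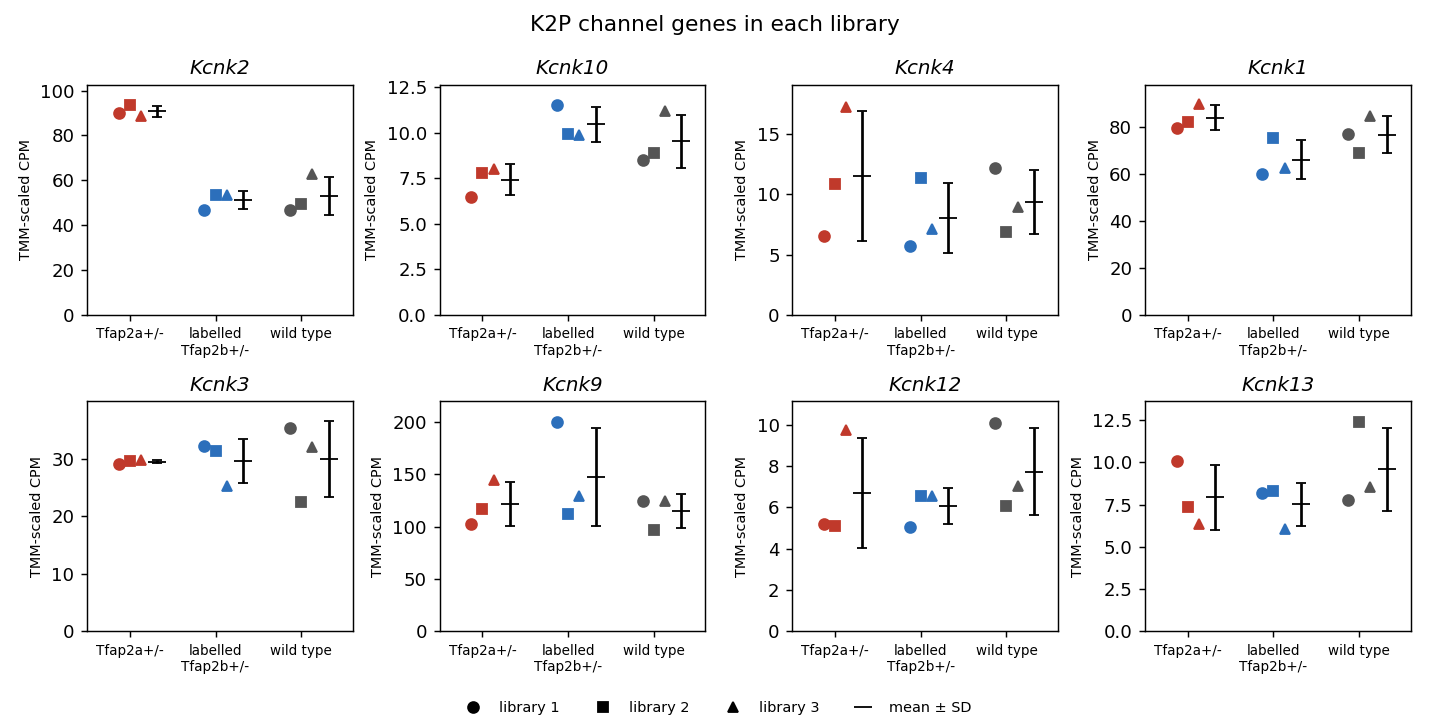
TMM-scaled CPM of the 8 genes (y axes from 0) in Tfap2a+/-, libraries labelled Tfap2b+/- and wild type, with 1 symbol per library and the mean ± SD (n = 3) beside each group. Kcnk2 is at 88.7 to 93.3 CPM in Tfap2a+/- and at 46.5 to 62.6 CPM in the other 6 libraries, while Kcnk10 is lowest in the 3 Tfap2a+/- libraries.

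Kcnk10 (chromosome 12, 98429437 to 98578310) encodes TREK-2, which responds to much the same stimuli as TREK-1. It had 6.47, 7.80 and 8.02 CPM in Tfap2a+/-, 11.5, 9.94 and 9.88 CPM in the group labelled Tfap2b+/-, and 8.50, 8.88 and 11.2 CPM in wild type. Its 3 Tfap2a+/- libraries were the lowest of the 9, although Tfap2a+/- library 3 and wild-type library 1 differed little. The log2 fold for Tfap2a+/- over wild type was -0.36 ± 0.15 (SE), and -0.23 without wild-type library 3. Against the group labelled Tfap2b+/- the log2 fold was -0.49 ± 0.15, with a 95% interval from -0.83 to -0.16, and did not pass (edgeR adjusted p = 0.37, lower in 3 of 3 libraries). The group labelled Tfap2b+/- overlapped wild type (0.13 ± 0.15, edgeR adjusted p = 0.74). Markers of other regions moved with these comparisons. Of 12 thalamic markers 0 had a higher mean in Tfap2a+/- than in wild type (median log2 fold -0.66) or than in the group labelled Tfap2b+/- (median -1.63), with a summed level of 253 to 358 CPM in Tfap2a+/-, 309 to 1469 CPM in the group labelled Tfap2b+/- and 426 to 489 CPM in wild type. Of 12 hippocampal markers 1 had a higher mean in Tfap2a+/- than in wild type (median -1.02), with a summed level of 637 to 766 CPM in Tfap2a+/- and 572 to 1050.1 CPM in wild type. No marker of either list was at 0 in all libraries. All 15 of 15 striatal markers had a higher mean in Tfap2a+/- in both comparisons, opposite to Kcnk10. Scores are the mean log2 CPM of a list's markers relative to the 9 libraries. Over these, Kcnk10 correlated with the striatal score at r = -0.77 and with the hindbrain and raphe score at 0.72. The r was 0.66 for cerebellar, 0.57 for hippocampal and 0.50 for thalamic markers. With genotype means removed these were -0.45, 0.50, 0.33, 0.31 and -0.15. The part of these markers in the level of Kcnk10 was not tested.

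The ratio of Kcnk2 to Kcnk10 was taken within each library, a pair picked after their values were seen. Kcnk2 had 13.9, 11.97 and 11.1 times the CPM of Kcnk10 in Tfap2a+/-, 4.03, 5.38 and 5.39 times in the group labelled Tfap2b+/-, and 5.51, 5.55 and 5.59 times in wild type. The ratio varied little in wild type and was higher in every Tfap2a+/- library than in any other. The ratios of Kcnk2 to Kcnk1 (0.989 to 1.14 in Tfap2a+/-, at most 0.852 elsewhere) and to Kcnk9 (0.612 to 0.875 in Tfap2a+/-, at most 0.511 elsewhere) did not overlap either. The separation is thus not particular to Kcnk10, and Kcnk2, chosen by its values, is part of every ratio. The ratio to Kcnk10 also holds the lower Kcnk10 of the Tfap2a+/- libraries.

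**Figure D2:**
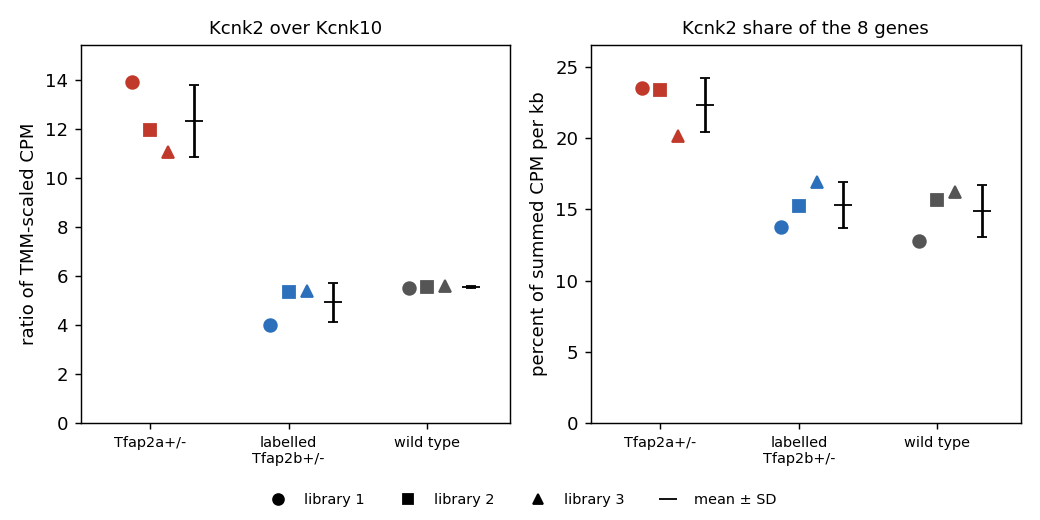
Left, CPM of Kcnk2 divided by CPM of Kcnk10 in each library. Right, the percentage that Kcnk2 makes up of the summed CPM per kb of merged exons of the 8 genes. In both, symbols are libraries and bars are the mean ± SD (n = 3). The ratio is 11.1 to 13.9 in Tfap2a+/- and 4.03 to 5.59 elsewhere, and the share is 20.1% to 23.5% in Tfap2a+/- and 12.8% to 16.9% elsewhere.

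Kcnk4 (chromosome 19, 6923966 to 6934515) encodes TRAAK, another member of the TREK subfamily, known from the nodes of Ranvier of myelinated axons. It had 6.54, 10.8 and 17.2 CPM in Tfap2a+/-, 5.72, 11.3 and 7.09 CPM in the group labelled Tfap2b+/-, and 12.2, 6.89 and 8.96 CPM in wild type. The 3 groups overlapped, and Tfap2a+/- alone spanned nearly the whole range of the gene. Its log2 fold was 0.30 ± 0.38 (SE) for Tfap2a+/- over wild type, -0.10 without Tfap2a+/- library 3 and 0.60 without Tfap2a+/- library 1. It was -0.21 ± 0.38 for the group labelled Tfap2b+/- over wild type (95% interval -1.08 to 0.65, edgeR adjusted p = 0.85), 0.02 without wild-type library 1 and -0.55 without library 2 labelled Tfap2b+/-. Kcnk4 shares 587 exon bases, 13.1% of its merged exons, with Catsperz on the same strand. Reads that fall on both genes go to the ambiguous row, which was left out, so its counts and its level per kb may be too low.

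The other exon overlaps of the family are with genes on the opposite strand. Kcnk2 shares 604 exon bases with the antisense A430027H14Rik, Kcnk3 shares 229 with Gm9899 and Kcnk1 shares 179 with Gm45875. The libraries keep the strand. A430027H14Rik stood at 1.03, 1.74 and 1.70 CPM in Tfap2a+/-, at 0.741, 1.38 and 1.02 CPM in the group labelled Tfap2b+/-, and at 1.41, 0.602 and 0.888 CPM in wild type, all far below Kcnk2. With counts read without strand the log2 fold of Kcnk2 for Tfap2a+/- over wild type was 0.79.

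Kcnk1 (chromosome 8, 125995170 to 126030685) encodes TWIK-1, a weakly conducting channel of neurons and astrocytes that resides largely inside the cell. It had 79.6, 81.9 and 89.7 CPM in Tfap2a+/-, 60.0, 75.3 and 62.5 CPM in the group labelled Tfap2b+/-, and 76.6, 68.7 and 84.3 CPM in wild type. The heterozygotes did not overlap each other, and both overlapped wild type. Between Tfap2a+/- and the group labelled Tfap2b+/- the log2 fold was 0.34 ± 0.11 (SE; 95% interval 0.09 to 0.60) and did not pass (edgeR adjusted p = 0.37, higher in 3 of 3 libraries). Over wild type it was 0.13 ± 0.11 for Tfap2a+/- and -0.22 ± 0.11 for the group labelled Tfap2b+/- (95% interval -0.47 to 0.04, edgeR adjusted p = 0.51). Of 12 neuronal markers, 10 had a higher mean in Tfap2a+/- than in the group labelled Tfap2b+/- (median log2 fold 0.05). Their summed level was 9661 to 11845 CPM in Tfap2a+/- against 8336 to 10550 CPM in the group labelled Tfap2b+/-, with none at 0. Other lists differed there as well: 15 of 16 microglial markers had a higher mean (median 0.31), and 0 of 12 thalamic markers did. Over the 9 libraries Kcnk1 correlated with the neuronal score at r = 0.51 and with the score of cortical markers at 0.73. With genotype means removed these were -0.12 and 0.70. The part of these markers in the result was not tested.

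The TASK channels, Kcnk3 (TASK-1, chromosome 5, 30588170 to 30625271) and Kcnk9 (TASK-3, chromosome 15, 72501089 to 72546340), are closed by extracellular acid. Kcnk9 is imprinted and is read mainly from the maternal copy in the brain. Kcnk3 had 29.1, 29.7 and 29.7 CPM in Tfap2a+/-, 32.3, 31.3 and 25.2 CPM in the group labelled Tfap2b+/-, and 35.3, 22.5 and 32.1 CPM in wild type. The Tfap2a+/- values lay inside the range of wild type. The log2 fold of Kcnk3 was -0.02 ± 0.16 (SE) for either heterozygote over wild type, and for the group labelled Tfap2b+/- the 95% interval ran from -0.39 to 0.35 (edgeR adjusted p = 0.98).

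Kcnk9 had 103, 117 and 145 CPM in Tfap2a+/-, 200.2, 112 and 129.6 CPM in the group labelled Tfap2b+/-, and 125, 96.5 and 125 CPM in wild type. A single library, number 1 labelled Tfap2b+/-, stood above the other 8. The log2 fold for that group over wild type was 0.35 ± 0.22 (95% interval -0.15 to 0.86, edgeR adjusted p = 0.57), and it was 0.07 without that library. The same library had a hindbrain and raphe marker score (mean log2 CPM of the markers relative to the 9 libraries, over the 5 of 15 that passed the filter) of 4.41, against at most 0.76 elsewhere. Tph2, the serotonin-synthesising enzyme, reached 40.9 CPM in it and at most 1.55 CPM in the others. The summed hindbrain and raphe markers were at 8.52 to 121 CPM in the group labelled Tfap2b+/- and 5.82 to 13.9 CPM in wild type, with 4 Hox genes (Hoxb5, Hoxa3, Hoxa4 and Hoxc4) at 0 in all libraries and all 5 scored markers higher in mean. The next highest Kcnk9, 145 CPM in Tfap2a+/- library 3, came with a hindbrain and raphe score of -1.53. Over the 9 libraries Kcnk9 correlated with this score at r = 0.58, with the choroid plexus score at -0.70 and with the striatal score at -0.53. With genotype means removed these were 0.50, -0.68 and -0.81. The part of these markers in the level of Kcnk9 was not tested.

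The THIK channels are Kcnk12 (THIK-2, chromosome 17, 87745801 to 87797994), which gives little current because it is held in the endoplasmic reticulum, and Kcnk13 (THIK-1, chromosome 12, 99964499 to 100062682), the main resting potassium channel of microglia. Kcnk12 had 5.20, 5.12 and 9.77 CPM in Tfap2a+/-, 5.05, 6.54 and 6.56 CPM in the group labelled Tfap2b+/-, and 10.1, 6.06 and 7.03 CPM in wild type. The groups overlapped, and the highest values were those of 1 Tfap2a+/- and 1 wild-type library. For the group labelled Tfap2b+/- over wild type its log2 fold was -0.35 ± 0.29 (SE; 95% interval -1.01 to 0.31, edgeR adjusted p = 0.66). For Tfap2a+/- over wild type it was -0.21 ± 0.29. Single libraries carried both folds: without wild-type library 1 they were -0.11 for the group labelled Tfap2b+/- and 0.03 for Tfap2a+/-, and without Tfap2a+/- library 3 the fold for Tfap2a+/- was -0.57.

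Kcnk13 had 10.1, 7.35 and 6.36 CPM in Tfap2a+/-, 8.19, 8.32 and 6.03 CPM in the group labelled Tfap2b+/-, and 7.80, 12.4 and 8.53 CPM in wild type. The groups overlapped. Its highest values were in wild-type library 2 and Tfap2a+/- library 1, whose choroid plexus scores of 3.66 and 1.85 were also the highest, and its lowest were in library 3 labelled Tfap2b+/- and Tfap2a+/- library 3, whose scores of -1.49 and -1.94 were the lowest. Other marker scores ran with Kcnk13 as well: over the 9 libraries r was 0.93 for choroid plexus, 0.79 for myelin and 0.74 for oligodendrocyte precursors. The myelin score was also lowest in library 3 labelled Tfap2b+/- (-0.84) and Tfap2a+/- library 3 (-1.11). The library with the highest microglia score, Tfap2a+/- library 2 (0.39), had 7.35 CPM of Kcnk13, and wild-type library 2 had a microglia score of 0.07. In a bulk sample fewer cells of a type and less RNA per cell cannot be told apart. The log2 fold for Tfap2a+/- over wild type was -0.27 ± 0.24 (SE), and -0.03 without wild-type library 2. In that comparison 0 of 16 choroid plexus markers had a higher mean, with a summed level of 257 to 1571 CPM in Tfap2a+/- and 351 to 5254 CPM in wild type and none at 0. Of 12 myelin markers 0 had a higher mean there (median log2 fold -0.47). Their part in the result was not tested. For the group labelled Tfap2b+/- over wild type the log2 fold was -0.35 ± 0.24 (95% interval -0.88 to 0.18, edgeR adjusted p = 0.59), and -0.11 without wild-type library 2. Of the choroid plexus markers 1 of 16 had a higher mean there, with a summed level of 237 to 736 CPM in the group labelled Tfap2b+/- and 351 to 5254 CPM in wild type. Of 12 myelin markers 4 had a higher mean there (median log2 fold -0.03). The part of these markers was not tested either.

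In Tfap2a+/- against wild type the libraries did not overlap for 2 of 8 members, Kcnk2 above and Kcnk10 below, where 9.17% of all 17355 genes did not overlap (4.85% higher and 4.32% lower). A higher mean was found for 4 of 8 members and 48.2% of all genes. Nothing is read from these counts, since this comparison chose Kcnk2. In the group labelled Tfap2b+/- against wild type all 8 overlapped, against a background of 16.5% that did not (8.84% higher and 7.63% lower), and 2 of 8 had a higher mean, against 49.7% of all genes. Between the heterozygotes 3 of 8 did not overlap (Kcnk1 and Kcnk2 higher in Tfap2a+/-, Kcnk10 lower), against 17.2% of all genes (8.03% higher and 9.2% lower), and 5 of 8 had a higher mean, against 48.3% of all genes. Both counts include Kcnk2, which was chosen by its values in these same Tfap2a+/- libraries, so nothing is read from them. Of the genes without overlap only Kcnk1 and Kcnk10 are relatives. Between the heterozygotes Kcnk3, Kcnk4, Kcnk9, Kcnk12 and Kcnk13 had log2 folds from -0.27 for Kcnk9 to 0.51 for Kcnk4 (edgeR adjusted p from 0.61 to 0.99), and their libraries overlapped. The median log2 fold of the 7 relatives was -0.02 for Tfap2a+/- over wild type and -0.21 for the group labelled Tfap2b+/- over wild type, where the medians over all genes were -0.01 and -0.0012. None of the 7 relatives was called by edgeR at an adjusted p under 0.05 in the group labelled Tfap2b+/- against wild type (0 at an unadjusted p under 0.05, 0 by DESeq2) or between the heterozygotes (2 at an unadjusted p under 0.05, 0 by DESeq2). The share of all genes that edgeR called was 0% in each of the 3 comparisons, while 666, 1841 and 1997 genes (3.84%, 10.6% and 11.5%) had an unadjusted p under 0.05 in Tfap2a+/- over wild type, the group labelled Tfap2b+/- over wild type and Tfap2a+/- over the group labelled Tfap2b+/-, and DESeq2 called 30, 175 and 228.

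**Figure D3:**
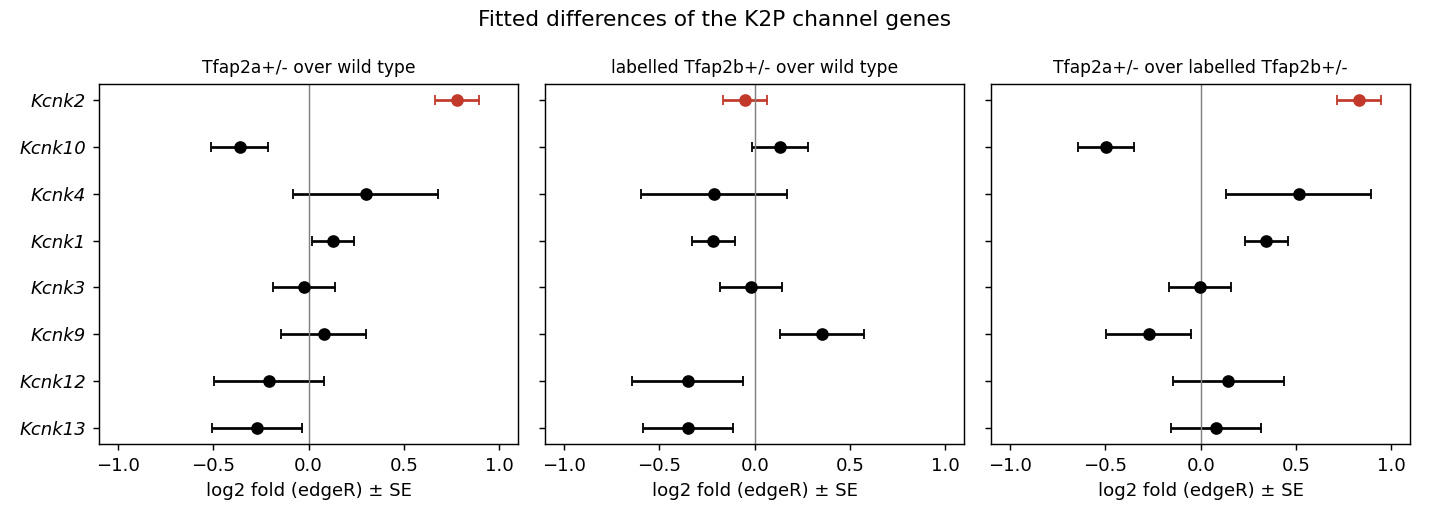
Fitted log2 fold ± SE of the 8 genes in the 3 comparisons, with Kcnk2 in red and the line at no difference. Kcnk2 lies at 0.78, -0.05 and 0.83, and the other 7 genes lie between -0.49 and 0.51.

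Levels of different genes were compared per kb of merged exons. Kcnk1 was the most abundant member, at 33.7 ± 4.46 CPM per kb (SD over all 9 libraries), followed by Kcnk2 at 13.1 ± 4.04, Kcnk9 at 10.4 ± 2.49, Kcnk3 at 7.47 ± 0.969, Kcnk12 at 3.46 ± 0.963, Kcnk13 at 2.68 ± 0.621, Kcnk4 at 2.16 ± 0.823 and Kcnk10 at 1.04 ± 0.188 CPM per kb. The ranges of Kcnk1 and Kcnk2 did not overlap, nor did those of Kcnk3 and Kcnk12, while every other pair of neighbours in this order overlapped. Per kb of the longest transcript instead, Kcnk2 stood at 18.2 and Kcnk4 at 3.80 CPM per kb, which puts Kcnk4 above Kcnk12. Kcnk10 was the scarcest of the 8 at either length.

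Over the 9 libraries the mean of Kcnk2 was above that of Kcnk9 at either length, but their overlap in wild type depended on the length used. In the group labelled Tfap2b+/- the order of their means did too. Kcnk9 averaged 11.97 CPM per kb there, and Kcnk2 10.3 per kb of merged exons and 14.3 per kb of the longest transcript. Per kb of merged exons, in Tfap2a+/- Kcnk2 was at 18.2, 18.9 and 18.0 CPM per kb and Kcnk9 at 8.38, 9.53 and 11.8, with no overlap. In the group labelled Tfap2b+/- Kcnk2 was at 9.41, 10.8 and 10.8 CPM per kb and Kcnk9 at 16.3, 9.10 and 10.5, and in wild type Kcnk2 was at 9.47, 9.97 and 12.7 and Kcnk9 at 10.1, 7.85 and 10.1, with overlap in both groups. Per kb of the longest transcript Kcnk2 was at 24.8 to 26.1 in Tfap2a+/-, 13.02 to 14.96 in the group labelled Tfap2b+/- and 13.1 to 17.5 in wild type, so it then lay above Kcnk9 without overlap in wild type as well, and still overlapped it in the group labelled Tfap2b+/-. Kcnk2 made up 23.5%, 23.4% and 20.1% of the summed CPM per kb of the 8 genes in Tfap2a+/-, 13.8%, 15.2% and 16.9% in the group labelled Tfap2b+/-, and 12.8%, 15.6% and 16.2% in wild type. The sum over the other 7 was 59.4, 61.9 and 71.2 CPM per kb in Tfap2a+/-, 59.0, 60.3 and 52.8 in the group labelled Tfap2b+/-, and 64.6, 53.9 and 65.5 in wild type, so it overlapped between all groups.

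**Figure D4:**
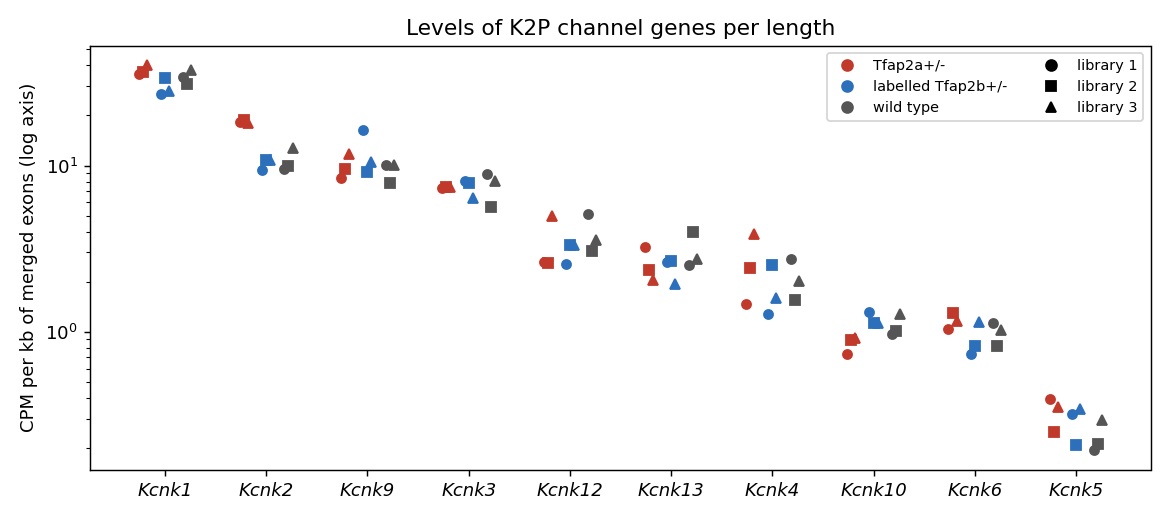
CPM per kb of merged exons on a log axis for the 8 members with Kcnk6 and Kcnk5, in order of their mean over 9 libraries. Colours are genotypes and symbols are libraries. Kcnk1 is highest at 26.8 to 40.1 CPM per kb, and Kcnk2 lies at 18.0 to 18.9 CPM per kb in Tfap2a+/-, above Kcnk9 there. At this length the 2 genes overlap in the other groups; per kb of the longest transcript they do not overlap in wild type.

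The remaining K2P genes were scarce or undetected. Kcnk6 (TWIK-2) had 4.31, 5.39 and 4.79 CPM in Tfap2a+/-, 3.04, 3.40 and 4.75 CPM in the group labelled Tfap2b+/-, and 4.70, 3.43 and 4.25 CPM in wild type. Kcnk5 (TASK-2), known from the kidney and the brainstem, had 1.34, 0.846 and 1.20 CPM in Tfap2a+/-, 1.09, 0.708 and 1.17 CPM in the group labelled Tfap2b+/-, and 0.657, 0.715 and 1.004 CPM in wild type. Both genes overlapped between all groups, and neither passed in any comparison (edgeR adjusted p from 0.52 to 0.999). Kcnk15 had 0 to 19 counts per library and Kcnk7 had 0 to 6. Kcnk18, the TRESK channel of sensory ganglia, had 2 counts in Tfap2a+/- library 1 and 0 elsewhere, and Kcnk16, known from the pancreas, had no count in any library, for which the limit is 0.101 to 0.141 CPM.

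Kcnk2 is known for strong expression in the striatum, and striatal markers differed between the same libraries. All 15 of 15 striatal markers had a higher mean in Tfap2a+/- than in wild type, with a median log2 fold of 2.01 and none at 0. Their summed level was 1243 to 3158 CPM in Tfap2a+/-, 502 to 988 CPM in the group labelled Tfap2b+/- and 617 to 1201 CPM in wild type. Striatal scores were 1.84, 1.63 and 0.10 in Tfap2a+/-, -1.27, -0.41 and 0.07 in the group labelled Tfap2b+/-, and -1.38, 0.22 and -0.80 in wild type. The 2 Tfap2a+/- libraries with the highest scores had Kcnk2 at 90.2 and 93.3 CPM. Tfap2a+/- library 3 and wild-type library 2 had similar striatal levels, by score 0.10 in the Tfap2a+/- library and 0.22 in the wild-type library, and by summed markers 1243 CPM in the Tfap2a+/- library and 1201 CPM in the wild-type library. Kcnk2 was at 88.7 CPM in that Tfap2a+/- library and 49.3 CPM in that wild-type library. Drd1, the dopamine receptor of the direct pathway, was at 19.8 CPM in that Tfap2a+/- library and 25.3 CPM in that wild-type library, while Pde10a, a striatal phosphodiesterase, was at 204 CPM in the Tfap2a+/- library and 142 CPM in the wild-type library. This pair of libraries was picked after the values were seen, and the wild-type one had the highest choroid plexus score (3.66). With 1 library of each genotype and single markers that differed in both directions, nothing on the cause is read from the pair. Over the 9 libraries Kcnk2 correlated with the striatal score at r = 0.79, and at 0.27 with genotype means removed. The part of these markers in the level of Kcnk2 was not tested. When the 3 libraries highest for choroid plexus or hindbrain markers (number 1 of each heterozygote and number 2 of wild type) were left out, the log2 fold of Kcnk2 for Tfap2a+/- over wild type was 0.74. That choice did not even out striatal markers, so this fold says nothing of them. The libraries kept had striatal scores of 1.63 and 0.10 in Tfap2a+/- and -1.38 and -0.80 in wild type.

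**Figure D5:**
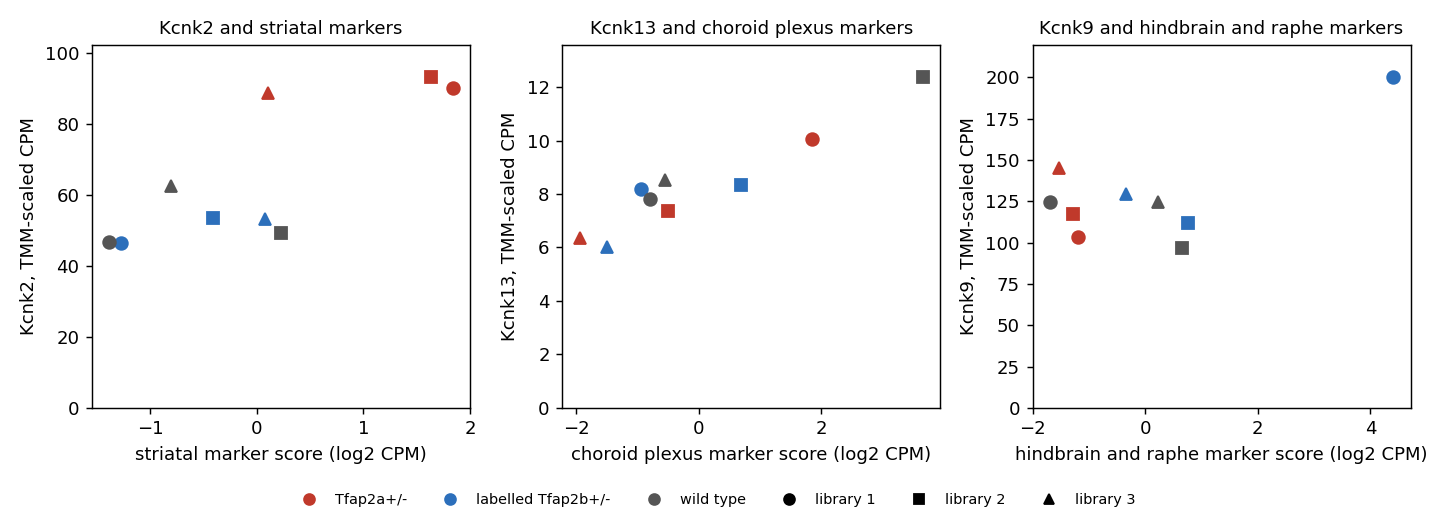
CPM of Kcnk2, Kcnk13 and Kcnk9 (y axes from 0) against the score of striatal, choroid plexus, and hindbrain and raphe markers (mean log2 CPM relative to the 9 libraries). Each symbol is 1 library. The 2 highest striatal scores, 1.84 and 1.63, are Tfap2a+/- libraries with Kcnk2 at 90.2 and 93.3 CPM, and Tfap2a+/- library 3 has Kcnk2 at 88.7 CPM at a score of 0.10. Kcnk13 is highest where the choroid plexus score is highest, and Kcnk9 is highest in the library with a hindbrain and raphe score of 4.41. The next highest Kcnk9 is at a score of -1.53.

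Genes with the most similar pattern to Kcnk2 were ranked by Pearson correlation of log2 CPM over the 9 libraries, among 10017 genes with a mean of at least 10 CPM, as a description without a test. The libraries share genotype, depth and tissue sampling. The highest were Ivns1abp (r = 0.97), the Golgi mannosidase gene Man2a2 (0.95), Mfsd14b (0.95), the endothelial receptor gene Acvrl1 (0.94) and Rbck1 (0.91), a subunit of the linear ubiquitin ligase. Without the Tfap2a+/- libraries these values were 0.75, 0.92, 0.85, 0.42 and 0.54, lowest for Acvrl1 and Rbck1. Acvrl1 was at 17.8 to 19.7 CPM in Tfap2a+/-, 13.4 to 15.0 CPM in the group labelled Tfap2b+/- and 13.1 to 14.7 CPM in wild type. The lowest were Zfp30 (-0.91), Kctd7 (-0.91), Hdac3 (-0.89), Ctnnbip1 (-0.89) and Parn (-0.87). Without the Tfap2a+/- libraries these were -0.43, -0.54, -0.84, -0.59 and -0.82.

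Proteins that bind or modify K2P channels were described from a list of 16, of which 15 passed the filter. None was called by edgeR in any comparison. At an unadjusted p under 0.05 there were 0 in either heterozygote over wild type and 2 between the heterozygotes. Over all genes that share was 3.84% in Tfap2a+/- and 10.6% in the group labelled Tfap2b+/- over wild type, and 11.5% between the heterozygotes. DESeq2 called 1 of the list, Akap5, between the heterozygotes, where it called 228 of all 17355 genes. In Tfap2a+/- over wild type, 5 of 15 had a higher mean, against 48.2% of all genes, and the median log2 fold was -0.04. In the group labelled Tfap2b+/- over wild type, 4 of 15 had a higher mean, against 49.7% of all genes, and the median was -0.17. Akap5, the anchoring protein that binds TREK-1, had 189, 200.9 and 174 CPM in Tfap2a+/-, 49.3, 92.4 and 135 CPM in the group labelled Tfap2b+/-, and 127, 153 and 119 CPM in wild type. Its Tfap2a+/- libraries lay above all others. Its log2 fold over wild type was 0.50 ± 0.29 (SE, edgeR adjusted p = 0.999), and over the group labelled Tfap2b+/- it was 1.02 ± 0.30 (edgeR adjusted p = 0.36, DESeq2 adjusted p = 0.050). For Senp1, which removes SUMO from channels such as TWIK-1, the log2 fold of Tfap2a+/- over the group labelled Tfap2b+/- was -0.25 ± 0.09 (edgeR adjusted p = 0.39).

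Other channels that set the resting potential came next. Of 13 inward rectifiers measured of 15 listed, 9 had a higher mean in Tfap2a+/- than in wild type (median log2 fold 0.04), against 48.2% of all genes. None was called by edgeR (1 at an unadjusted p under 0.05, against 3.84% of all genes, and 0 by DESeq2). That gene was Kcnj2, the classical strong inward rectifier, at 28.6, 31.1 and 19.9 CPM in Tfap2a+/-, against 18.3, 12.99 and 21.5 CPM in wild type. Its groups overlapped (log2 fold 0.59 ± 0.22, edgeR adjusted p = 0.999). Of 8 sodium leak and pacemaker genes measured of 9 listed, 6 had a higher mean in the group labelled Tfap2b+/- than in wild type (median log2 fold 0.18). None was called by edgeR (2 at an unadjusted p under 0.05, 1 by DESeq2). Over all 17355 genes 49.7% had a higher mean there, 10.6% had an unadjusted p under 0.05, and DESeq2 called 175.

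Hcn4, a slow pacemaker channel known from the thalamus and brainstem, had the smallest p of that list. It was at 20.7, 21.4 and 15.0 CPM in the group labelled Tfap2b+/-, against 5.64, 11.4 and 5.52 CPM in wild type, with no overlap. The log2 fold was 1.33 ± 0.32 (edgeR adjusted p = 0.32, DESeq2 adjusted p = 0.014, higher in 3 of 3 libraries). Nalcn, the sodium leak channel, and its partner Unc80 also did not overlap in that comparison, with log2 folds of 0.20 ± 0.09 and 0.19 ± 0.11 (edgeR adjusted p = 0.48 and 0.55). In all, 3 of the 8 genes did not overlap there, each higher, against 8.84% of all 17355 genes (16.5% in either direction). Of 12 thalamic markers 12 had a higher mean in the same comparison, with a summed level of 309 to 1469 CPM in the group labelled Tfap2b+/- and 426 to 489 CPM in wild type and none at 0. Their part in these values was not tested.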

How the data were processed

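Per the labels' protocols, RNA from brain tissue was selected for polyadenylated molecules and made into stranded dUTP libraries. The authors deposited whole-number counts per gene per library. Per the submitters' processing notes, the tools were cutadapt 2.4 and STAR 2.6.1d, with edgeR also named, on GRCm38.p6. Reverse-strand counts were used. Rows that name no gene (unmapped 1.21% to 1.74%, multimapping 5.33% to 6.20%, outside exons 7.30% to 11.8%, ambiguous 1.10% to 1.21% of fragments) stayed out of library sizes and tests. Of 54446 identifiers, 54409 were found in GENCODE M21, the source of symbols, coordinates and exon lengths, ignoring versions. Genes past filterByExpr were fitted in edgeR 4.0.16 (R 4.3.3) with TMM and the quasi-likelihood F-test, 1 model of genotype over all 9 libraries, and adjusted by Benjamini-Hochberg over 17355 genes, called under 0.05. The procedure was tested on simulated data. DESeq2 1.42.0 was an alternative. Replicates all differed by more than sampling noise (chi-square per degree of freedom at least 20.6). Floors cover counting error only. The members and lists were chosen with earlier results of these data known. Named genes are the K2P genes, genes overlapping their exons, those most and least like Kcnk2 (3 most like each relative), up to 4 of smallest p from a list described, and the Tfap2 genes. Tph2, Drd1, Pde10a and Akap5's DESeq2 value were picked after values were seen. Promoter windows are from RefSeq on GRCm38.p6. Alternatives were counts without strand, another normalisation, other filters, a block for replicate number, a robust fit, only the libraries of the genotypes compared, and each library left out.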

Additional observations from a re-analysis of the deposited data

How the results depend on the processing

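The log2 fold of Kcnk2 stayed within the spread between libraries under all 18 alternatives in each comparison: 0.70 to 0.92 for Tfap2a+/- over wild type, 0.77 to 0.86 for Tfap2a+/- over the group labelled Tfap2b+/-, and -0.13 to 0.09 for the group labelled Tfap2b+/- over wild type. Those ranges come from leaving out each library in turn, and the last fold turned positive without wild-type library 3 (0.09) and without library 1 labelled Tfap2b+/- (0.02). No relative was called under any alternative in the comparisons where it was tested. Small folds turned sign under some alternatives for Kcnk3, Kcnk4, Kcnk9, Kcnk12 and Kcnk13. Over all genes edgeR called none in Tfap2a+/- over wild type, against 30 with DESeq2, 2 with no filter and 0 to 3 with a library left out (3 without Tfap2a+/- library 2). For the group labelled Tfap2b+/- over wild type the calls were 175 with DESeq2, 0 to 4 with a library left out (2 and 4 without libraries 1 and 3 labelled Tfap2b+/-) and 2 without the 3 libraries highest for choroid plexus or hindbrain markers, an alternative chosen after seeing the data. For Tfap2a+/- over the group labelled Tfap2b+/- they were 228 with DESeq2, 7 with no filter, 1 without those 3 libraries and 0 to 31 with a library left out (3 without Tfap2a+/- library 2, 2 and 31 without libraries 1 and 3 labelled Tfap2b+/-). The cause was not tested. With the replicate number as a block the calls were 0 in each comparison, and the log2 fold of Kcnk2 was 0.79, 0.83 and -0.05 in the order above. Libraries of the same number shared only the number: their deviations correlated from -0.35 to 0.34, and 6 of 18 looked at correlated best with their own number. Genes under about 1 CPM rest on few counts.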

Other observations

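Kcnk4 and Catsperz, which lie on the same strand, ran together in all 9 libraries (chosen after their values were seen). They share exon bases, where reads are left out as ambiguous. Kcnk4 had 2.20, 2.23 and 2.25 times the CPM of Catsperz in Tfap2a+/-, 2.57, 2.56 and 2.44 times in the group labelled Tfap2b+/-, and 1.84, 1.79 and 2.17 times in wild type, while Kcnk4 alone ranged from 5.72 to 17.2 CPM and Catsperz from 2.22 to 7.65 CPM. The genes most like Kcnk4 over the 9 libraries were Reep2 (r = 0.97), Sel1l3 (0.97) and Cacna1a (0.96), a neuronal calcium channel gene.

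For Kcnk13 the most similar genes were P4hb, Prlr and Ucp2 (r = 0.96, 0.96 and 0.94). Prlr, the prolactin receptor, belongs to the choroid plexus markers. It stood at 32.4, 4.01 and 1.11 CPM in Tfap2a+/-, 13.2, 10.9 and 1.06 CPM in the group labelled Tfap2b+/-, and 3.76, 86.6 and 4.13 CPM in wild type. Those most like the relatives were Gid4 for Kcnk1 (0.97), Smarcd2 for Kcnk10 (0.95), Zfp276 for Kcnk3 (0.97), Chchd7 for Kcnk9 (0.92) and Zcchc2 for Kcnk12 (0.95), each given as a description over 9 libraries.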
